A study of Mus musculus with 12 samples.

Results

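The mouse microRNA families miR-297, miR-466, miR-467 and miR-669 were followed in NIH3T3 cells, an established mouse embryonic fibroblast line, at 0 h, when they were untreated, and at 2, 5 and 10 h of tunicamycin (Tm) at 2 μg/ml. Members were all mature probe sets whose name starts with one of the 4 family names followed by a letter, with star strands left out, and 48 of the 1412 mouse probe sets on the array met this rule. They fell into 4 of miR-297, 20 of miR-466, 8 of miR-467 and 16 of miR-669. All cells were asynchronously growing NIH3T3 without any other labelled allele or agent, in 3 GeneChip miRNA arrays at each of the 4 times and 12 arrays in all. There were no untreated arrays at 2, 5 or 10 h, so an effect of Tm cannot be told apart from time in culture or handling. The labels do not say whether the 3 arrays of a time came from separate cultures, so each p-value covers only array-to-array spread, part or all of which could be technical.

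A microRNA is cut from a hairpin precursor, whose 5′ and 3′ arms can each give a mature strand, and its seed, the bases 2 to 8 from the 5′ end, guides the pairing with target messenger RNAs. In the mouse, most genes of these 4 families form a large tandem cluster inside Sfmbt2, a gene for a polycomb group protein that is imprinted in the placenta, and the cluster is known from embryonic stem cells and placenta. Tm blocks N-linked glycosylation, which loads the endoplasmic reticulum with unfolded protein and starts the unfolded protein response.

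The RefSeq annotation of GRCm38.p6 placed the genes of 37 members wholly within the span of Sfmbt2 on chromosome 2. Another 4 members, miR-297a, miR-466f, miR-466f-3p and miR-466f-5p, had gene copies both there and on chromosome 7 or 13. The name of a Sfmbt2 cluster therefore did not cover 7 members, miR-466i, miR-466j, miR-466k, miR-467f, miR-467g, miR-467h and miR-669n, whose single gene lies elsewhere. Of these, miR-466i overlaps Cdk13, miR-467f overlaps Fxr2, miR-467g overlaps Grk4, miR-669n overlaps Slc30a7 and miR-466k overlaps the predicted gene Gm31419, while no other gene overlapped miR-466j or miR-467h.

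Mature sequences from RefSeq (GRCm38.p6) were matched by name for 7 of the 48 members. They are the same 7 members with a gene outside Sfmbt2, and 3 of them, miR-466i, miR-466j and miR-669n, are among the 4 members called between 5 h and 2 h further on. The bases in capitals are the seed, and 3 of the 7 are built mainly of C and A:
miR-466i (listed as miR-466i-3p, chr13:17747552-17747573, + strand): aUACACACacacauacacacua
miR-467f (chr11:69635419-69635439, - strand): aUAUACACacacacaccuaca
miR-467g (chr5:34732872-34732892, - strand): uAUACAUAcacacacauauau
The other 4 are built mainly of U and G:
miR-466j (chr10:60960802-60960824, + strand): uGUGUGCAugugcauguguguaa
miR-466k (chr3:85467396-85467418, + strand): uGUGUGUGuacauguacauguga
miR-467h (chr9:115381898-115381919, + strand): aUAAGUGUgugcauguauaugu
miR-669n (chr3:115979905-115979924, + strand): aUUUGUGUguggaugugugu
A pair of microRNAs outside the 4 families, whose mature sequences hold a repeat of the same kind, are shown as sequence neighbours:
miR-1187 (chr5:82798964-82798986, - strand): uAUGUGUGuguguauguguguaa
miR-574-5p (chr5:64970328-64970350, + strand): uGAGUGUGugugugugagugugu

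A run of at least 4 CA, AC, UG or GU units was searched on the mature strand as written. It was found in 5 of the 7 members and in 7 of all 250 mature probe sets with a matched sequence, or 2.80%. The run was 6 units long in miR-467f, 5 in miR-466i and 4 in miR-467g, miR-466k and miR-669n, while miR-466j and miR-467h reached 3. None of the 9 printed sequences shared its seed with another. No pair of the 7 members was within 2 differences of each other, counted as substitutions, insertions or deletions. The closest pairs of members, miR-466i with miR-467f and miR-467f with miR-467g, differed by 5, and miR-1187 differed from miR-466j by 4 and from miR-669n by 5. Short probes to related sequences can share signal, and how much of one probe set's value came from a relative was not tested.

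The values are log2 intensities made with RMA by the authors. Array medians over all probe sets lay between 2.60 and 2.67. A background limit was set on each array at its most frequent value plus 3 times the spread below it. It lay between 2.95 and 3.21, and between 52.2% and 55.9% of the 717 mature probe sets of an array exceeded it. Of 9 fibroblast and mesenchymal markers (miR-21, miR-199a, miR-214, miR-143 and the like), all were above the limit on all 12 arrays, and of 9 pluripotent cell markers (the miR-290 and miR-302 groups) all were at or below it on all 12. None of the 7 epithelial markers was above the limit on all 12 arrays, and their summed linear level, led by miR-205 and miR-200c, lay between 799.5 and 874.6 at 0 h, 69.3 and 91.1 at 2 h, 24.3 and 25.9 at 5 h, ending with 23.9 to 28.1 at 10 h. Of the 7, 4 were at or below the limit on all 12 arrays. At 5 h and 10 h the log2 means of all 7 lay between 1.46 and 2.34, below the limit, so the sums at these times are background values. The summed level moved with every comparison against 0 h below and also with that of 5 h against 2 h. Its part in them was not tested.

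Most members were measured above background. On all 12 arrays 33 of the 48 members exceeded the limit, 11 never did and 4, miR-466k, miR-467h, miR-669i and miR-669m, did on some arrays. With a limit of 2 spreads in place of 3, 8 members never exceeded it. The members always above the limit were 2 of 4 in miR-297, 14 of 20 in miR-466, 7 of 8 in miR-467 and 10 of 16 in miR-669, against 336 of all 717 mature probe sets.

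The arms of the hairpins differed in whether they could be measured. All 9 members named as 3p arms were above the limit on all 12 arrays, and 6 of the 8 members named as 5p arms were at or below it on all 12. The exceptions were miR-466c-5p and miR-466f-5p, which were above it on every array. Of 14 arm pairs of one hairpin name, 8 named 5p and 3p and 6 named as a strand and its star, 6 had both arms above the limit on all 12 arrays, and 7 had one arm that never exceeded it. The star strand was the measured one in miR-297c, whose other strand never exceeded the limit. In miR-467e, the star strand exceeded it on 9 arrays and the other strand on all 12.

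In each family the member with the highest value at 0 h was first read across the time course. Values of different probe sets also depend on their probes, so no test was made between them. MiR-467a had log2 values of 10.09, 9.98 and 10.08 before Tm. They were 9.83, 10.02 and 9.82 at 2 h, 10.00, 10.06 and 9.95 at 5 h, with 10.11, 9.91 and 10.07 on the 10 h arrays. MiR-669c had 9.10, 8.96 and 9.27 before Tm. Its values were 9.20, 9.29 and 9.27 at 2 h, 9.21, 9.38 and 9.05 at 5 h, with 9.28, 9.18 and 9.27 on the 10 h arrays. The arrays of each later time overlapped those at 0 h for both, and neither passed the test in any comparison. MiR-297a, of which the annotation lists 4 gene copies, had 6.47, 6.84 and 6.67 before Tm. The 2 h arrays read 6.37, 6.29 and 6.12, the 5 h arrays 6.40, 6.50 and 6.28, and the 10 h arrays 6.18, 6.40 and 6.31. It lay below all 0 h arrays at 2 h and at 10 h, but its differences of −0.40 ± 0.13 at 2 h and −0.36 ± 0.13 at 10 h (log2, SE, n = 3 each) did not pass, with limma adjusted p = 0.065 and 0.10. The fourth, miR-466e-3p, is described with the 3p arms of its family.

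**Figure D1:**
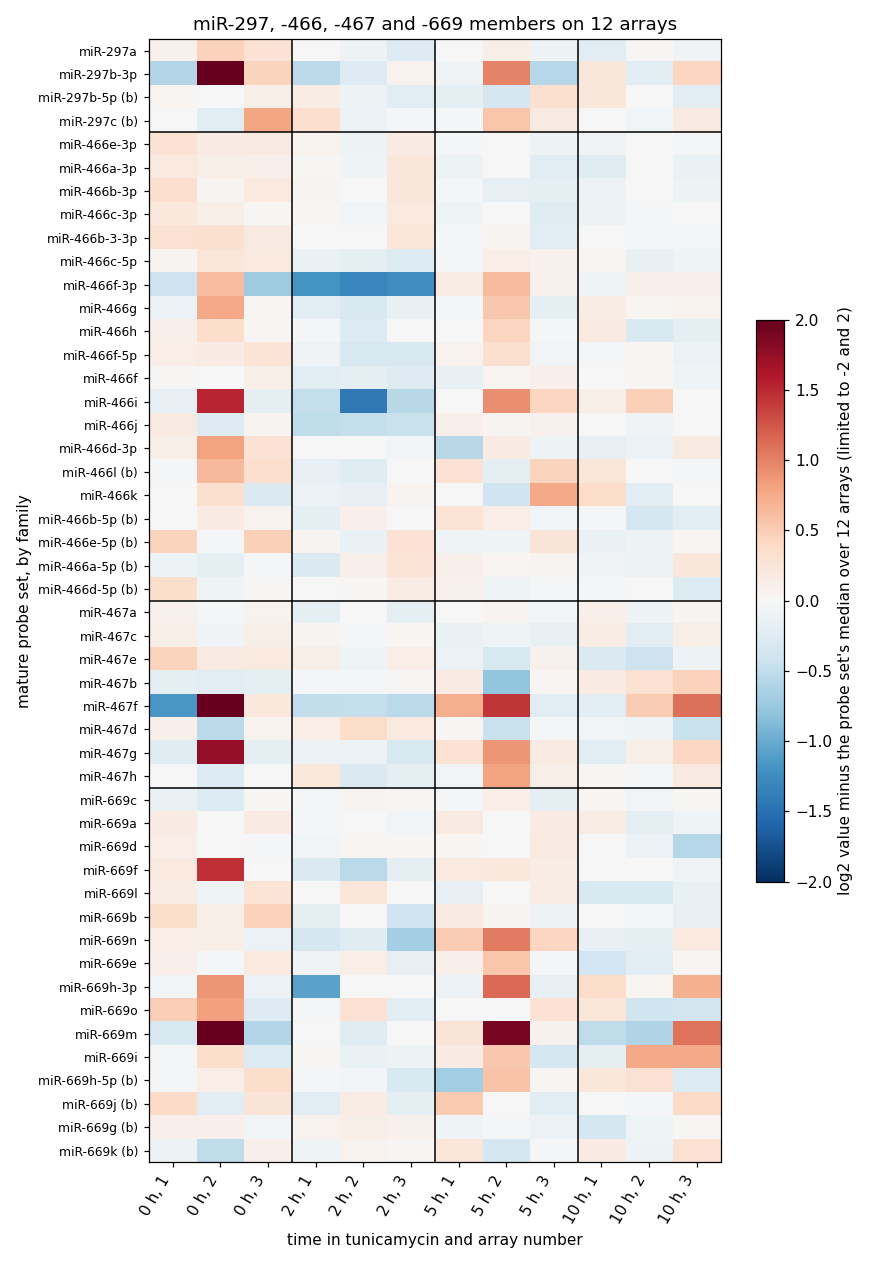
Log2 value of each of the 48 members (rows, by family, and within a family by value at 0 h) on each of the 12 arrays (columns), as the difference from that probe set's median over the 12 arrays, with the colour limited to −2 and 2. Members marked (b) were at or below the background limit on all 12 arrays. The row of miR-466f-3p is low on all 3 arrays at 2 h, and several rows, such as miR-467f, miR-669m and miR-466i, are highest on the second array at 0 h.

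The second array at 0 h stood apart from the other 2 for some members. On it, 7 members lay at least 1 log2 unit above the mean of the other 0 h arrays and none as far below, which is 14.6% of the members, against 3.74% of the other mature probe sets. They were miR-669m with 4.67, miR-467f with 3.62, miR-297b-3p with 2.37, miR-467g with 1.98, miR-466i with 1.70, miR-669f with 1.37 and miR-466f-3p with 1.19. For miR-467f, the 0 h values were 3.46, 7.77 and 4.84. For miR-669m they were 2.59, 7.12 and 2.33, so that only the second array was above background.

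The second 5 h array stood apart to a smaller degree. There 4 members lay at least 1 unit above the other 5 h arrays, miR-669m with 1.73, miR-297b-3p with 1.31, miR-669h-3p with 1.28 and miR-467f with 1.17, which is 8.33% of the members, against 3.14% of the other mature probe sets. No other array had more than 1 such member. Across the 48 members the deviations of these 2 arrays had a Pearson correlation of 0.67 and a Spearman correlation of 0.52, against 0.60 and 0.28 over the other mature probe sets, given as a description of probe sets that share their arrays.

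Among the sequences printed above, those built mainly of C and A deviated on the second 0 h array by 3.62 in miR-467f, 1.98 in miR-467g and 1.70 in miR-466i. Those built mainly of U and G deviated by 0.11 in miR-669n, −0.27 in miR-467h and −0.37 in miR-466j, while miR-466k was at or below background on all 0 h arrays. The second 5 h array did not part them in this way, with 1.17 in miR-467f, 0.71 in miR-466i and 0.65 in miR-467g beside 0.77 in miR-467h, 0.58 in miR-669n and −0.04 in miR-466j. Of the printed members, miR-467f alone reached 1 on both arrays. None of the 8 members named 5p lay 1 unit above on either array, against 2 of the 9 named 3p on each. However, 6 of these 8 were at or below background on all 12 arrays, and all 9 named 3p were above it. Of the 6 star strands of these families, which are no members, 4 did on the second 0 h array, the highest being miR-467b-star with 3.30. What set these arrays apart was not tested. Calls of members and star strands below that were lost without both are named as such.

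**Figure D2:**
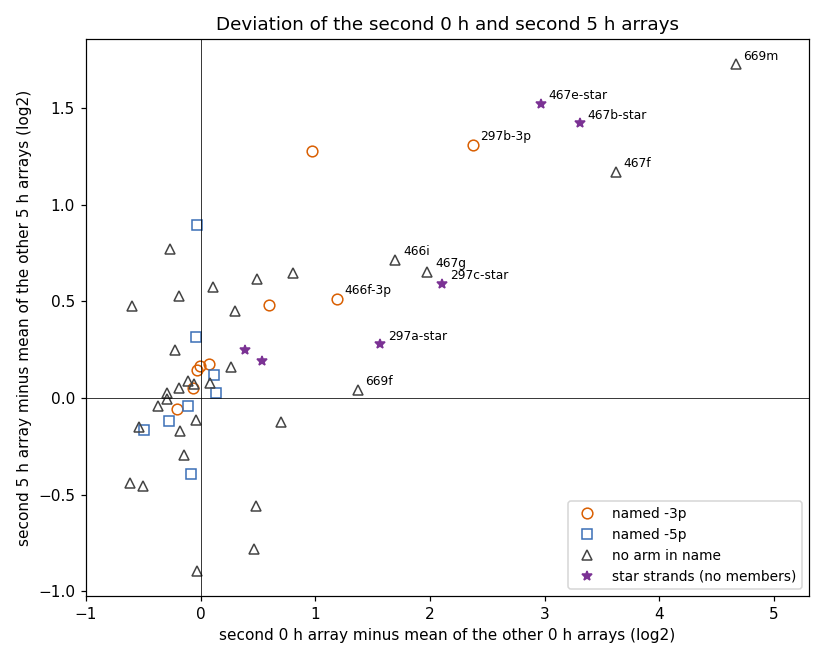
Deviation of the second 0 h array from the mean of the other 0 h arrays (horizontal axis, log2) against that of the second 5 h array from the mean of the other 5 h arrays (vertical axis, log2), 1 point for each member or star strand, with those at or above 1 on the horizontal axis labelled. The members named 5p, of which 6 of 8 were at or below background on all 12 arrays, stay below 1 on both axes. MiR-669m and miR-467f lie far to the upper right with 4.67 and 3.62 on the horizontal axis.

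The comparison of 2 h with 0 h asks how the families stood early in the stress. Most members lay a little below their 0 h level at 2 h. The median difference of the 48 members was −0.20 on the log2 scale and 41 lay below 0, against a median of 0.03 and 324 below 0 among all 717 mature probe sets. Without both deviating arrays, that is the second of 0 h and of 5 h, the members' median was −0.17 and 38 lay below 0. The medians at 2 h were −0.26 in miR-297, −0.24 in miR-466, −0.10 in miR-467 and −0.18 in miR-669. Medians and signs here and below include the 11 members at or below background on all 12 arrays, 2 of them in miR-297, for which a difference was not detectable.

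With all 12 arrays in one limma fit and Benjamini-Hochberg adjustment over the 717 mature probe sets, 5 of the 48 members (10.4%) were called lower at 2 h at an adjusted p under 0.05, against 5.86% of all 717. None was called higher, against 7.39% of all 717. The 5 were miR-466f-3p, miR-669f, miR-466j, miR-466f-5p and miR-466c-5p. At an unadjusted p under 0.05, 14 members were lower (29.2%, against 10.5% of all 717) and none was higher (against 14.1%). Single arrays moved the count of 5, which was 2 without the second 0 h array, 1 without the third 2 h array, and 3 without the third 0 h array or without the first or second 2 h array. For this and the like counts below, the share of all 717 called without the same array is not given. Such counts therefore describe only how stable the calls were. The smallest p that exact permutation of 3 arrays and 3 arrays allows is 0.1, so that the calls depend on a spread shared over all probe sets.

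MiR-466f-3p, the 3p arm of hairpins found 3 times in Sfmbt2 and once on chromosome 13, gave log2 values of 6.73, 6.64 and 6.69 at 2 h, against 7.52, 8.56 and 7.22 at 0 h. The 2 h arrays lay close together and all below the 0 h arrays. The difference was −1.08 ± 0.24 (SE, n = 3 each), a 2.12-fold lower signal with an adjusted p of 0.0084 in limma. The size depended on the second 0 h array, since without both deviating arrays it was −0.69 ± 0.11 with an adjusted p of 0.0012.

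The opposite arm went the same way with a smaller difference. MiR-466f-5p had 6.69, 6.44 and 6.44 at 2 h, against 6.89, 6.92 and 7.03 at 0 h, without overlap. Its difference was −0.42 ± 0.12 (adjusted p = 0.034 in limma), and −0.43 without both deviating arrays, where it no longer passed (adjusted p = 0.051). It also did not pass without any single 0 h array or without the second or the third 2 h array (adjusted p between 0.062 and 0.12). Another probe set, named miR-466f without an arm, had 6.62, 6.64 and 6.57 at 2 h, against 6.85, 6.84 and 6.94 at 0 h, a difference of −0.27 ± 0.11 that did not pass (adjusted p = 0.12 in limma).

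MiR-466j, built mainly of U and G and whose gene lies on chromosome 10, had 6.05, 6.08 and 6.11 at 2 h, against 6.73, 6.30 and 6.61 at 0 h. All 2 h arrays were lower than all 0 h arrays, by −0.47 ± 0.12 (adjusted p = 0.023 in limma). Here the second 0 h array was the lowest of its time, and without both deviating arrays the difference was −0.59 (adjusted p = 0.0066). Without the first or the third 0 h array, or without any single 2 h array, it lay between −0.38 and −0.48 and did not pass (adjusted p between 0.050 and 0.095).

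MiR-466c-5p, one of the 2 measured 5p arms, had 7.49, 7.45 and 7.35 at 2 h, against 7.68, 7.87 and 7.83 at 0 h. The groups did not overlap, and the difference was −0.36 ± 0.09 (adjusted p = 0.017 in limma), or −0.32 without both deviating arrays, where it did not pass (adjusted p = 0.069). The call was also lost without the second 0 h array alone, without the third 0 h array (limma adjusted p = 0.054) and without the third 2 h array (adjusted p = 0.078). Its 3p arm, miR-466c-3p, had 9.26, 9.18 and 9.41 at 2 h, against 9.43, 9.34 and 9.25 at 0 h, which overlap, with a difference of −0.06 ± 0.08. The arms of this hairpin name thus passed the test in one and not in the other, and the difference between them was not tested.

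The call of miR-669f was lost under 18 of the 24 alternative settings run. It had 5.54, 5.29 and 5.65 at 2 h, against 6.02, 7.29 and 5.82 at 0 h. The difference was −0.88 ± 0.28 (adjusted p = 0.048 in limma). Without both deviating arrays it was −0.43 and did not pass (adjusted p = 0.12). Without any single 2, 5 or 10 h array it did not pass either (adjusted p between 0.053 and 0.14).

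Between 2 h and 5 h, 4 members were higher at 5 h and none was lower. This comparison asks whether the state at 5 h differed from that at 2 h. The 0 h arrays do not enter its differences, though they share in the estimate of the spread. The 4 are 8.33% of the members, against 5.86% of all 717 called higher, and 4.88% of all 717 were called lower. The median difference of the members was 0.14 with 17 of 48 below 0, against 0.00 with 360 of 717 below 0 over all mature probe sets. Leaving out both deviating arrays gave a median of the members of 0.11, and the same 4 members were called higher, against 6.42% of all 717 higher and 4.74% lower.

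MiR-466f-3p had 8.08, 8.56 and 8.02 at 5 h, against 6.73, 6.64 and 6.69 at 2 h. Every 5 h array was more than 1 log2 unit above every 2 h array. The difference was 1.54 ± 0.24 (2.90-fold, adjusted p = 0.00052 in limma), and 1.37 ± 0.11 without both deviating arrays.

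MiR-669n, the U and G repeat that overlaps Slc30a7, a zinc transporter gene, had 5.64, 6.18 and 5.56 at 5 h, against 4.80, 4.90 and 4.46 at 2 h. The groups did not overlap, and the difference was 1.08 ± 0.21 (2.11-fold, adjusted p = 0.0033 in limma), or 0.88 ± 0.21 without both deviating arrays (adjusted p = 0.014). At 10 h it had 4.96, 4.94 and 5.34, all below the 5 h arrays, but the difference of −0.71 ± 0.21 from 5 h did not pass over the 717 (adjusted p = 0.075).

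MiR-466j had 6.65, 6.61 and 6.65 at 5 h, against 6.05, 6.08 and 6.11 at 2 h. The difference was 0.55 ± 0.12 (1.47-fold, adjusted p = 0.0078 in limma), or 0.57 without both deviating arrays (adjusted p = 0.0076), with the arrays of each time close together. Its 10 h arrays, with 6.57, 6.49 and 6.54, lay just below those at 5 h.

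MiR-466i, the C and A repeat that overlaps Cdk13, a cyclin-dependent kinase gene, had 6.29, 7.22 and 6.72 at 5 h, against 5.80, 4.85 and 5.73 at 2 h. The arrays did not overlap, though both groups were spread widely. The difference was 1.28 ± 0.39 (adjusted p = 0.047 in limma), and 1.04 ± 0.25 without both deviating arrays (adjusted p = 0.016). Leaving out any single 2 h or 10 h array, or the second or the third 5 h array, ended this call (adjusted p between 0.065 and 0.21, with differences between 0.98 and 1.45).

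Of these 4 members, miR-466i, miR-466j and miR-669n belong to the 7 with a gene only outside Sfmbt2, and miR-466f-3p to the 4 with copies at both kinds of place. None of the 37 with genes only within Sfmbt2 was called in this comparison, beside 5.86% of all 717 called higher and 4.88% lower. All 7 members with genes elsewhere had differences above 0, with a median of 0.64, while 20 of the 37 had, with a median of 0.07. These counts were made after the values were known and describe these arrays only. They include members at or below background, miR-466k at 2 h among them. All 11 members at or below it on all 12 arrays are among the 37.

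The sequence neighbour miR-1187, which is no member, had 6.08, 6.54 and 6.29 at 5 h, against 4.93, 5.25 and 4.72 at 2 h, without overlap. The difference was 1.34 ± 0.18 (adjusted p = 0.00012 in limma), and it was also lower at 2 h than at 0 h by −0.60 ± 0.18 (adjusted p = 0.043), a call that was lost without both deviating arrays (−0.56, adjusted p = 0.093). At 5 h miR-1187 also lay above its 0 h level, by 0.73 ± 0.18 (adjusted p = 0.022 in limma). Its difference of 0.15 ± 0.18 at 10 h from 0 h did not pass (adjusted p = 0.69). The other neighbour, miR-574-5p, had 8.86, 8.99 and 8.78 at 5 h, against 8.68, 8.64 and 8.66 at 2 h, also without overlap and in the same direction, but the difference of 0.22 ± 0.07 did not pass (adjusted p = 0.076 in limma). Of the other members built mainly of U and G, miR-467h lay near background and differed by 0.38 ± 0.26, which did not pass, and miR-466k was at or below background on all 2 h arrays, so no difference is given for it.

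**Figure D3:**
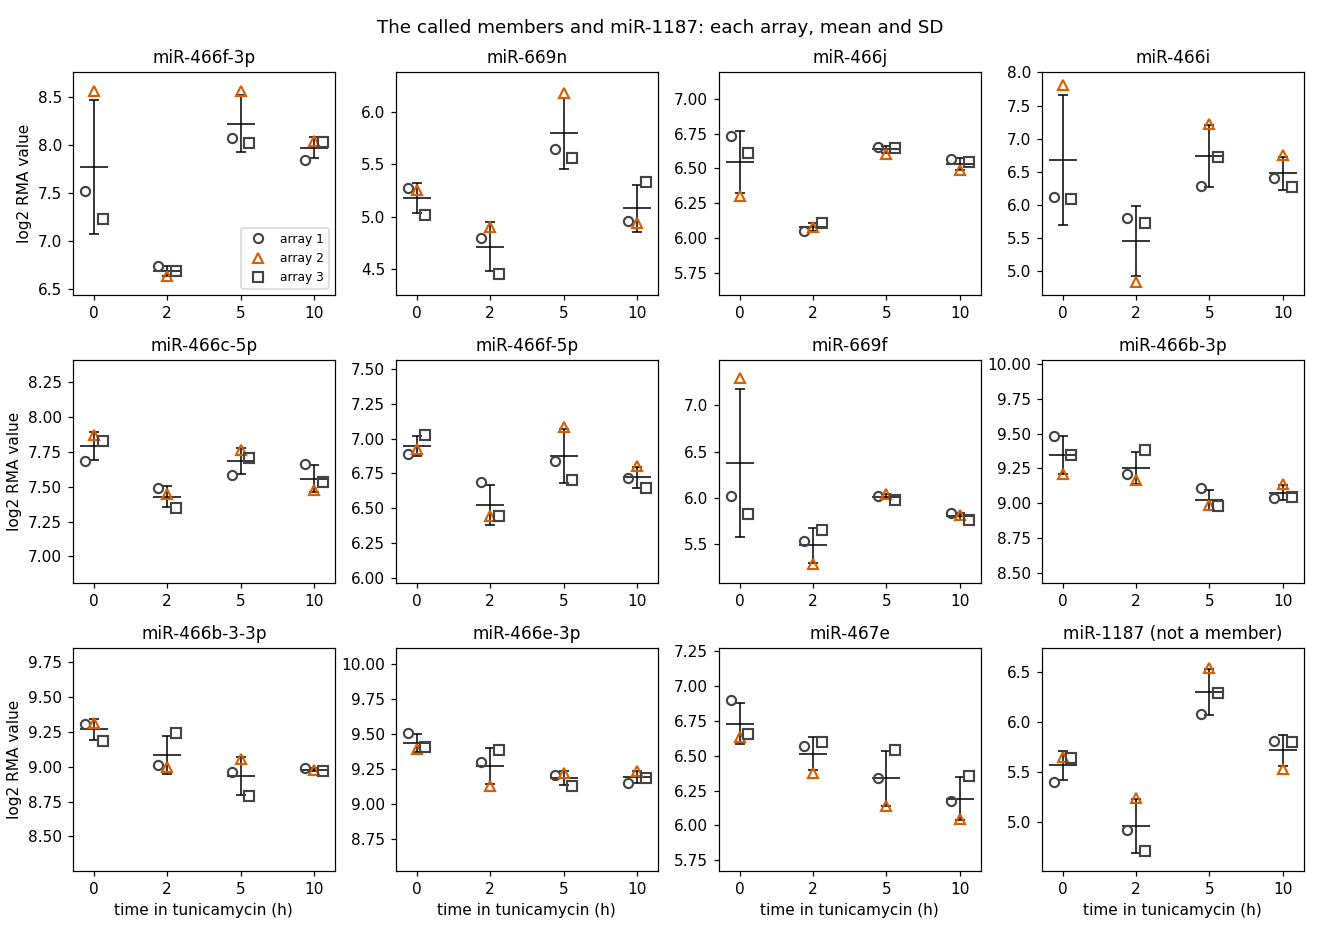
Log2 RMA value on each array (points, array 2 in orange) with the mean and SD of 3 arrays (bars) at 0, 2, 5 and 10 h, for the 11 members called in any comparison and for miR-1187, which is no member. The vertical axes span different ranges and do not start at 0. The 2 h arrays of miR-466f-3p and miR-466j lie below the arrays of every other time, while miR-466b-3p, miR-466b-3-3p and miR-466e-3p change by less than 0.5.

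The comparisons of 5 h and 10 h with 0 h ask how the families stood later in the stress. The members lower at 5 h were 3p arms of miR-466. MiR-466b-3-3p, miR-466b-3p and miR-466e-3p were called, 3 of 48 members (6.25%), against 4.04% of all 717 called lower, and no member was called higher, against 4.32% of all 717. The median difference of the members was −0.08 and 30 of 48 lay below 0, against 0.03 and 319 of 717. Both comparisons and that of 2 h share the 0 h arrays. At an unadjusted p under 0.05, 7 members were lower (14.6%, against 7.95% of all 717) and 1 was higher (2.08%, against 10.6%) at 5 h. The count of 3 was 0 without the first 0 h array (7 at an unadjusted p under 0.05 in limma) and 1 without the third 0 h array or without any single 5 h array.

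MiR-466b-3p, of which the annotation lists 8 gene copies in Sfmbt2, had 9.11, 8.98 and 8.98 at 5 h, against 9.48, 9.21 and 9.35 at 0 h. No array overlapped, and the difference was −0.32 ± 0.08 (1.25-fold lower, adjusted p = 0.019 in limma). MiR-466b-3-3p, the 3p arm named for one of these copies, had 8.96, 9.05 and 8.79 at 5 h, against 9.31, 9.32 and 9.18 at 0 h, with a difference of −0.33 ± 0.08 (adjusted p = 0.019). These 2 probe sets read strands of one gene group and may share signal, so that they are not separate observations. With miR-466a-3p, miR-466c-3p and miR-466e-3p, given next, they make 5 probe sets with means between 9.27 and 9.44 at 0 h. All 5 deviated by 0.17 to 0.26 on the third 2 h array and by −0.22 to −0.13 on the second. On the second 0 h array they deviated by −0.20 to 0.07. Whether the 5 share signal was not tested, so their calls cannot be taken as separate observations.

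MiR-466e-3p had 9.21, 9.22 and 9.13 at 5 h, against 9.51, 9.39 and 9.41 at 0 h. The groups did not overlap, though the difference of −0.25 ± 0.07 was small (adjusted p = 0.036 in limma). Without both deviating arrays it was −0.29 and did not pass (adjusted p = 0.098), while miR-466b-3p and miR-466b-3-3p did (adjusted p = 0.032 and 0.047). Single arrays ended the calls of all 3, with adjusted p up to 0.11 for miR-466b-3p and 0.090 for miR-466b-3-3p (both without the first 0 h array) and 0.15 for miR-466e-3p (also without it). The related 3p arms miR-466a-3p and miR-466c-3p differed by −0.24 ± 0.09 and −0.22 ± 0.08 and did not pass (adjusted p = 0.12 and 0.11). The remaining 3p arms of miR-466 also did not pass, miR-466d-3p with −0.57 ± 0.20 (adjusted p = 0.11) and miR-466f-3p on the other side of 0 with 0.45 ± 0.24. The 5p arms of miR-466, apart from those of miR-466c and miR-466f, were at or below background.

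The same 3 probe sets were called lower at 10 h together with miR-467e, 4 of 48 members (8.33%), against 7.11% of all 717, and no member was called higher, against 5.58% of all 717. The median difference of the members was −0.20 with 39 of 48 below 0, against 0.02 with 336 of 717 below 0. At an unadjusted p under 0.05, 9 members were lower (18.8%, against 12% of all 717) and 1 was higher (2.08%, against 11.2%) at 10 h. The count of 4 was 0 without the first 0 h array (11 at an unadjusted p under 0.05 in limma), 2 without the third 0 h array, and 1 without the first or the third 10 h array. MiR-466b-3p had 9.04, 9.14 and 9.05 at 10 h, all below its 0 h arrays, a difference of −0.27 ± 0.08 (adjusted p = 0.031 in limma). MiR-466b-3-3p had 8.99, 8.98 and 8.97 (−0.29 ± 0.08, adjusted p = 0.027), a call that was lost without both deviating arrays (−0.27, adjusted p = 0.067). MiR-466e-3p had 9.15, 9.24 and 9.19 (−0.25 ± 0.07, adjusted p = 0.027). The differences at 10 h were within their standard errors of those at 5 h.

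MiR-467e had 6.18, 6.05 and 6.35 at 10 h, against 6.90, 6.63 and 6.66 at 0 h, without overlap. The difference was −0.54 ± 0.14 (1.45-fold lower, adjusted p = 0.018 in limma), and −0.59 ± 0.15 without both deviating arrays. It did not pass without the first 0 h array (−0.45, adjusted p = 0.095) or the second 10 h array (−0.47, adjusted p = 0.086). Its means at 2 h and 5 h, 6.51 and 6.34, lay between those levels, and neither difference from 0 h passed (adjusted p = 0.40 and 0.11). The other members of miR-467 that were measured on all arrays did not pass at 10 h.

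Leaving out both deviating arrays changed which members were called at 10 h and 5 h. MiR-466f-3p, with 7.85, 8.04 and 8.03 at 10 h, then stood 0.60 ± 0.11 above 0 h (adjusted p = 0.0030 in limma), against 0.21 ± 0.24 with all arrays (adjusted p = 0.68). At 5 h it stood 0.68 ± 0.12 above 0 h (adjusted p = 0.0054), against 0.45 ± 0.24 with all arrays (adjusted p = 0.35). MiR-467b was then also called higher at 10 h (0.50 ± 0.15, adjusted p = 0.039), as 1 of 2 members higher (4.17%, against 5.86% of all 717) and 4 lower (8.33%, against 6.97%). The fourth lower one, miR-466e-5p, was at or below background on all 12 arrays, so no fold is given for it. Without these arrays the median of the members at 10 h was −0.15 with 33 of 48 below 0.

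**Figure D4:**
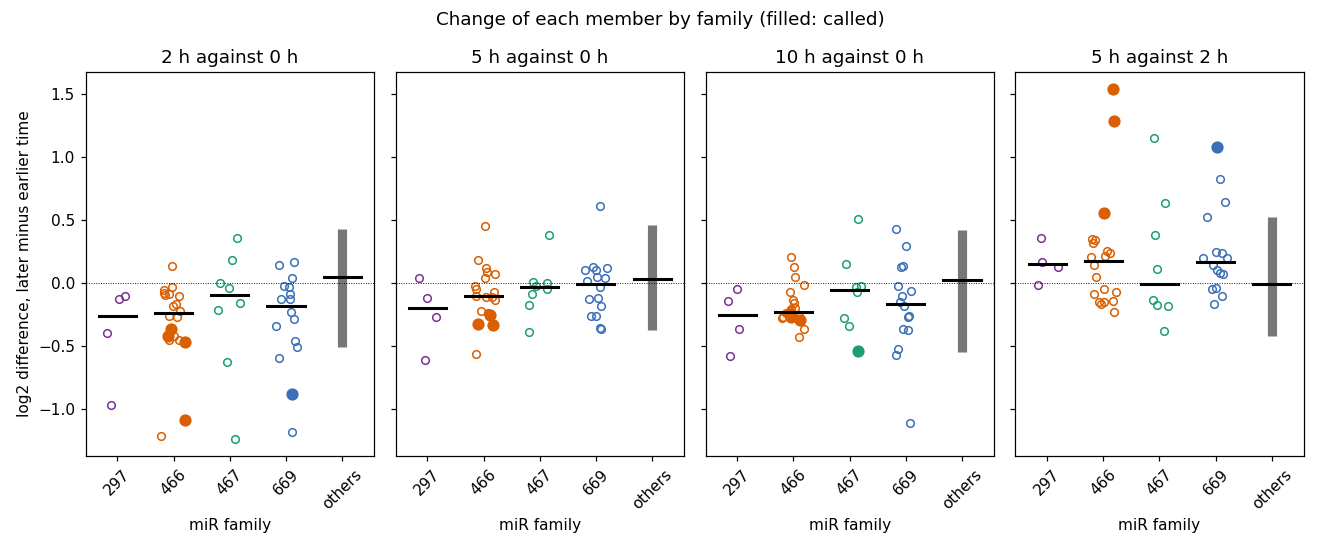
Fitted log2 difference, later minus earlier time, of each member by family in 4 comparisons (circles, filled where called at an adjusted p under 0.05, horizontal bars are medians), beside the other mature probe sets (grey bar from the 5th to the 95th percentile, with their median). The medians of all 4 families lie below 0 at 2 h and at 10 h against 0 h, and the 4 filled circles of 5 h against 2 h lie at 0.55 and above.

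From 5 h to 10 h no member was called, with 3 members at an unadjusted p under 0.05 in limma, 1 higher (2.08%, against 6.28% of all 717) and 2 lower (4.17%, against 8.93%), and none called by the unmoderated test that the methods name, while 1.81% of all 717 were called higher and 3.77% lower. Over the whole time course, the moderated F test called 8 of 48 members (16.7%), against 21.8% of all 717. These were miR-466f-3p (adjusted p = 0.0012), miR-669n (0.011), miR-466j (0.015), miR-466b-3p (0.019), miR-466b-3-3p (0.027), miR-466c-5p (0.040), miR-466e-3p (0.041) and miR-467e (0.048). By family, 6 of 20 in miR-466, 1 of 8 in miR-467, 1 of 16 in miR-669 and none of 4 in miR-297 passed. Leaving out the first 0 h, first 2 h or second 10 h array left 4 called in place of 8, and leaving out the second 0 h, the third 2 h or the third 10 h array left 5. The shares of all 717 called over time in these fits are not given. The fit without both deviating arrays called 5, miR-466f-3p, miR-669n, miR-466j, miR-466b-3p and miR-466i, the last not among the 8. The share of members called over time was not above that of all mature probe sets.

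The star strands and hairpins of the same families were read beside the members. Of the 6 star strands, miR-467a-1-star had 8.22, 8.49 and 8.01 before Tm, then 7.79, 7.81 and 7.93 at 2 h, and 7.65, 7.68 and 7.89 on the 10 h arrays. MiR-467d-star had 8.04, 8.65 and 8.19 before Tm, then 7.75, 7.89 and 7.89 at 2 h, and 7.68, 7.79 and 7.74 on the 10 h arrays. At 2 h and 10 h neither overlapped with 0 h, and both were lower, by −0.40 ± 0.12 and −0.45 ± 0.13 at 2 h (limma adjusted p = 0.043 and 0.027) and by −0.50 ± 0.12 and −0.55 ± 0.13 at 10 h (adjusted p = 0.011 and 0.0078). Their 5 h arrays, with 7.99, 8.15 and 7.80 and with 8.05, 8.18 and 7.94, overlapped those at 0 h. The differences at 5 h, −0.26 ± 0.12 and −0.24 ± 0.13, did not pass (limma adjusted p = 0.26 and 0.34). The 2 h calls were lost without both deviating arrays, with −0.27 for each (adjusted p = 0.14 and 0.093), and at 10 h both passed, with −0.37 and −0.38 (adjusted p = 0.039 and 0.020). The opposite strands did not pass, with −0.16 ± 0.07 and −0.02 ± 0.07 for miR-467a, and 0.35 ± 0.22 and −0.07 ± 0.22 for miR-467d, at 2 h and 10 h. The remaining star strands were not called in any comparison. Of 64 hairpin probe sets of the families, 15 were above the limit on all 12 arrays and 32 on none. In the separate fit of 690 hairpin probe sets none of the 64 was called over time, with 7 at an unadjusted p under 0.05 and a lowest adjusted p of 0.26, against 0.145% of all hairpin probe sets called.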

How the data were processed

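The deposited values are log2 intensities of each probe set, which the authors obtained with RMA per the submitters' processing notes. Its version, that of the array and the annotation build were not given in the sources used here. Samples were grouped by the times in their labels. A second deposited table holds the same values with the authors' means, p-values, step-up adjusted p-values, ratios, fold changes and analysis of variance statistics, which were not used.

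No further normalization was applied. The 717 mature probe sets (121 star strands) entered one fit of all 12 arrays in limma 3.58.1 (R 4.3.3), in which time had 4 levels and the prior variance followed the mean. All p-values are two-sided and were adjusted by Benjamini-Hochberg over all 717, at a threshold of 0.05. The 690 hairpin probe sets were fitted apart, and 5 probe sets with older names were left out. The fit was tested on simulated data with known changes at 10 h and noise drawn independently for each probe set and array. That noise held no deviation shared by the probe sets of an array, so the test does not cover the deviating arrays. Members, lists and comparisons were chosen with earlier results of these data known. Values were named for called members, the member highest at 0 h in each family, near-identical sequences, and microRNAs outside the families with a repeat run. The methods name analysis of variance and t-tests, which were run as an alternative. Other alternatives changed the scaling, the filter, the probe sets or arrays that entered, the model of the variance, weights of arrays, or took the replicate number as a block.

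Sequences and gene positions came from RefSeq tables of GRCm38.p6. All 48 members were matched to a gene, with the gene listed as Mir466 taken for miR-466a. The number of arrays limits the precision, and the median standard error of a log2 difference at 10 h was 0.156. No 2 arrays of the same time held more than 0.283% equal values.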

Additional observations from a re-analysis of the deposited data

Results flagged for a closer look

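For 4 members the change from 0 h at 5 h differed from that at 2 h in the test of 5 h against 2 h itself. On the log2 scale, this difference was 1.54 for miR-466f-3p, 1.28 for miR-466i, 0.55 for miR-466j and 1.08 for miR-669n. MiR-466f-3p and miR-466j passed under each of the 24 alternative settings run, with 1.37 to 1.64 and 0.52 to 0.57. MiR-669n passed under each except the t-test of the methods (adjusted p = 0.12). MiR-466i lost its call under 12 of the 24, among them leaving out any of the 2 h arrays.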

How the results depend on the processing

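Of the 16 calls of members in pairwise comparisons, 2 held under all 24 alternatives, 14 lost significance under at least 1, and none changed direction. The call of miR-669f at 2 h was lost most often, under 18. With all arrays in limma, 5 members were called at 2 h, 3 at 5 h and 4 at 10 h relative to 0 h, with 4 for 5 h against 2 h, 0 for 10 h against 5 h and 8 over time. With only the brighter 50% of probe sets they were 9 at 2 h, 5 at 5 h and 1 for 10 h against 5 h (miR-669n, lower), and with only probe sets above the limit 8 at 2 h and 1 for 10 h against 5 h. With mature and hairpin probe sets together they were 3 at 2 h, 1 at 10 h and 3 over time. Without the trend of the variance they were 0 at 5 h (9 at an unadjusted p under 0.05), 1 at 10 h and 3 over time. With the methods' t-test and Benjamini-Hochberg adjustment they were 2 at 2 h (miR-466f lower and miR-467b higher, neither of them called in limma), 0 at 5 h, 0 at 10 h, 2 for 5 h against 2 h and 4 over time, and at an unadjusted p under 0.05 they were 8, 6, 12, 9 and 13, with 3 for 10 h against 5 h. With only the 2 time points compared they were 2 at 2 h and 0 at 5 h (8 at an unadjusted p under 0.05). With each array shifted to 1 median they were 2 at 10 h. Without both deviating arrays they were 2 at 2 h and 5 over time. The cause of these shifts was not tested. The share of all tested probe sets called under each setting is not given here or below. These counts therefore describe only how stable the calls were.

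The replicate number as a block gave 3 at 2 h, 2 at 10 h and 5 over time, and it ended the 5 h call of miR-466e-3p. Same-numbered arrays of different times correlated between −0.21 and 0.60 in their deviations, over 0.1 in 4 of 18 pairs. Those 4 include every same-numbered pair of 0 h with 5 h (0.31, 0.60 and 0.19). Differently numbered arrays of these times also correlated, the first 0 h with the third 5 h array at 0.38 and the third 0 h with the first 5 h array at 0.43. The remaining differently numbered pairs of 0 h with 5 h, each with a second array, lay between −0.49 and −0.38. The labels do not say how the replicates were made, so whether the numbers pair the arrays cannot be told. Leaving out 1 array at a time gave 1 to 5 at 2 h, 0 to 3 at 5 h, 0 to 5 at 10 h, 3 to 5 for 5 h against 2 h, 0 for 10 h against 5 h, 4 to 8 over time and 0 hairpins. Family medians kept their sign except miR-467 at 10 h, which was 0.00 without both deviating arrays, and miR-669 at 5 h, whose range reached 0.00. Quantile normalization gave 3 higher and 1 lower at 5 h against 2 h. A repeat run of at least 5 units left 2 members in place of 5. Depth on arrays is signal over background, and for the 11 members at or below the limit a difference was not detectable.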
